A study of Mus musculus with 4 samples.

Results

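Translation initiation factors (eIF) and elongation factors (eEF), with their kinases, binding proteins and modifying enzymes, were followed in mouse fibroblasts carrying knockdown constructs against Selt, the gene of selenoprotein T. The genes were chosen by name, as every probe whose gene symbol begins with Eif or Eef and then a digit. Earlier results of these data were known when that choice was made. This gave 101 of 22534 probes, for 60 of 12347 named genes. A value on all 4 arrays was found for 76 of these probes, which left 48 genes for the tests and 12 genes without one. Counts and medians below cover the 48 genes and not the 60.

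Each of 4 two-colour arrays paired Cy3-labelled RNA of NIH 3T3 cells, an established mouse fibroblast line, holding the empty pU6-m3 vector with Cy5-labelled RNA of NIH 3T3 cells holding pU6-m3 with a siRNA target sequence. The sequence was siSelT-1, nucleotides 205 to 224 of Selt, on 2 arrays, and siSelT-5, nucleotides 971 to 989, on the other 2. Vector and knockdown cells alike were stable transfectants under 150 µg/ml hygromycin B, in DMEM with 10% FBS, an antibiotic-antimycotic solution and 100 nM sodium selenite. Replicates of a construct used RNA from separate knockdown cultures at separate times, per the series' design text. Whether the cells of a construct were 1 clone or a pool, and whether arrays shared a vector culture, is not given in the sources used here. The table holds no probe under the name of the targeted gene, so the knockdown was not analysed here.

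A value is the log ratio of the channels of an array. It was read as log2 of knockdown over vector, from the order of the sample titles and the dye labels, so that 1 means a doubling in the knockdown cells. The base and the normalization are not given in the sources used here, every fold rests on base 2, and an inverted ratio would invert every direction. Knockdown RNA carried Cy5 on every array, so a dye effect of a gene does not cancel in a ratio against vector, but it does cancel in siSelT-1 minus siSelT-5. The arrays had values for 7689 and 9232 probes with siSelT-1 and for 20268 and 18361 with siSelT-5. Over the 7038 probes valued on all 4 arrays, the median ratios were 0.19 and 0.09 with siSelT-1 and 0.43 and 0.36 with siSelT-5. Results are therefore given on the deposited scale and also centred, meaning after each array's own shared-probe median was subtracted. Of 12 fibroblast markers 8 had a value on all arrays, among them Vim, Thy1 and Col3a1. The leukocyte marker Ptprc, the muscle regulator Myod1 and the epithelial keratin Krt18 had no named probe, so their absence could not be judged. Markers of other lineages did have values on all arrays: the endothelial Cd34, Pecam1 and Tie1, the macrophage Lyz2, the muscle Des and the adipocyte Lpl. A ratio gives no level, so presence of a value is the only measure of the cell type here.

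In eukaryotic initiation, eIF2 bound to GTP brings the initiator tRNA to the small ribosomal subunit, and eIF1, eIF1A and the multisubunit eIF3 complex prepare that subunit for scanning. The mRNA arrives through eIF4E at the cap, the scaffold eIF4G and the helicase eIF4A, while 4E-binding proteins compete with eIF4G for eIF4E. eIF2B reloads eIF2 with GTP and is blocked when eIF2 kinases phosphorylate eIF2, and eIF5B joins the large subunit. In elongation, eEF1A delivers aminoacyl-tRNA, the eEF1B subunits recycle eEF1A, and eEF2 moves the ribosome along the mRNA.

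With both constructs together, most factor transcripts that passed the test were higher in knockdown than in vector cells. Of the 48 genes, 27 (56.2%) were higher and 1, Eif5b, was lower at a Benjamini-Hochberg adjusted p under 0.05 in limma, fitted over 4754 genes. Among all genes tested, 45.7% were higher and 8.04% lower. The median ratio of the factors was 0.36 against 0.25 for all genes. After centring, 16 factors (33.3%) were higher and 7 (14.6%) lower, beside 20.5% and 21.9% of all genes, with medians of 0.10 for the factors and -0.02 for all genes. The ratio was above 0 on all 4 arrays for 26 factors (54.2%), beside 44.9% of all genes, and above the shared-probe median of each array for 20 (41.7%), beside 25.2%. All 16 factors that were higher after centring were also higher as deposited, and Eif5b was lower on both scales. Without siSelT-1 replicate 1, 0 factors and 0% of all genes passed in limma; 22 higher and 1 lower factor, and 38.8% of all genes, had an unadjusted p below 0.05. Leaving out the other siSelT-1 array left 14 higher and 0 lower, beside 17% and 1.39% of all genes.

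**Figure D1:**
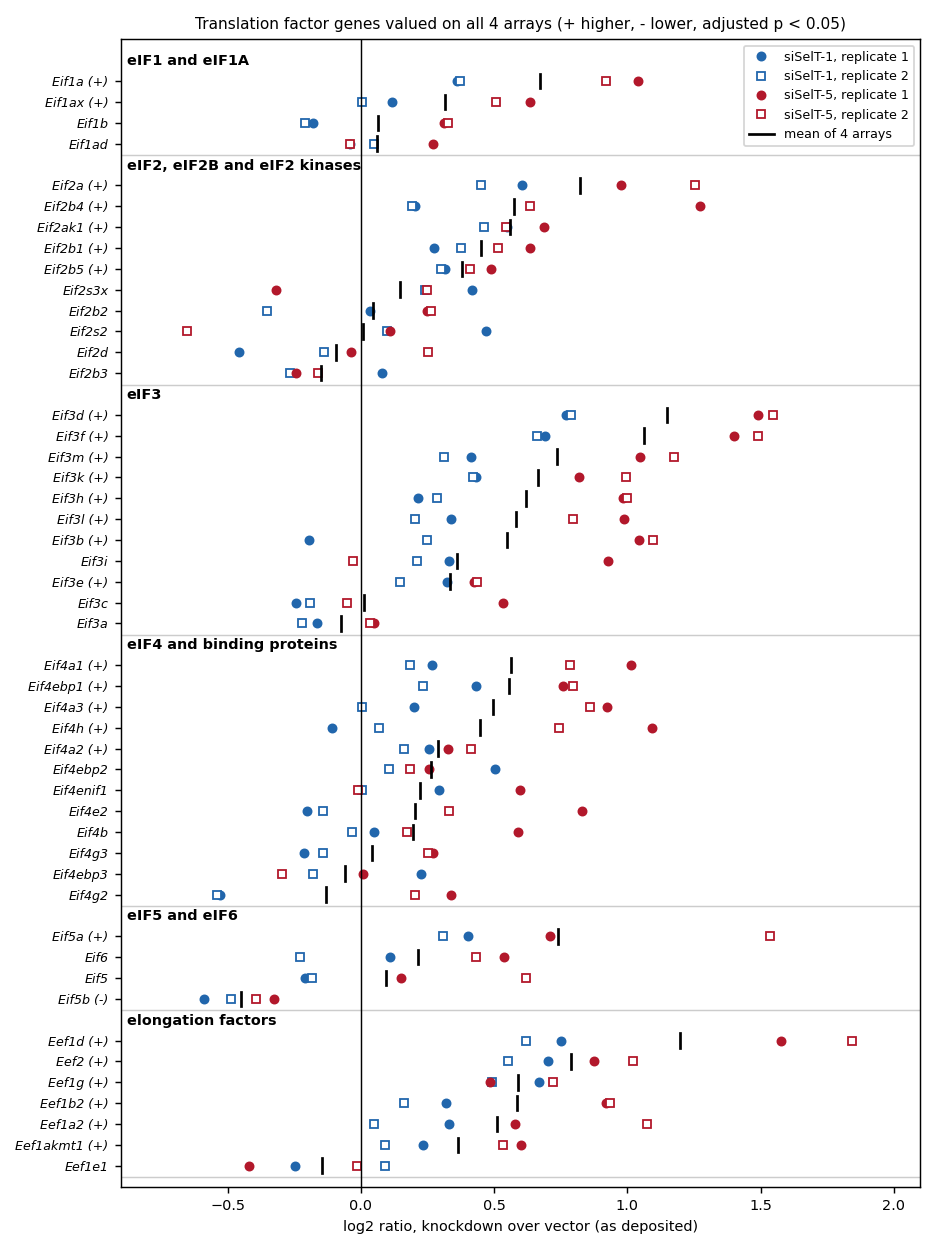
Log2 ratio of knockdown over vector, as deposited, of the 48 translation factor genes (rows, by class) on each of the 4 arrays; a black bar marks the mean, and + or - beside a name marks genes higher or lower for both constructs together at an adjusted p under 0.05 in limma. Red siSelT-5 symbols lie to the right of blue siSelT-1 symbols in most rows, and Eif5b is the sole row marked as lower.

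The eIF3 complex and the elongation factors had the highest medians, both 0.58. The shares of all genes tested were 45.7% higher and 8.04% lower, with a median of 0.25 (20.5% and 21.9% after centring). Within eIF3, 8 of 11 genes (72.7%) were higher and 0 lower (6 and 1 after centring, median 0.31). Within the elongation group, 6 of 7 (85.7%) were higher and 0 lower (4 and 1 after centring, median 0.32). The eIF4 group had 5 of 12 (41.7%) higher and 0 lower with a median of 0.24 (3 and 2 after centring). The eIF2 group with eIF2B and the kinases had 5 of 10 (50%) higher and 0 lower with a median of 0.26 (2 and 2 after centring). The higher shares and medians of these 2 groups as deposited were close to those of all genes. The eIF1 group had 2 of 4 higher and 0 lower with a median of 0.19 (1 and 0 after centring). In eIF5 with eIF6, 1 of 4 was higher and 1 lower with a median of 0.15 (0 and 1 after centring). The order of the classes was not tested. Beside them stood 44 ribosomal protein genes, the parts of the ribosome itself. Of these, 43 (97.7%) were higher and 0 lower, with a median of 0.86 (37 and 0 after centring).

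**Figure D2:**
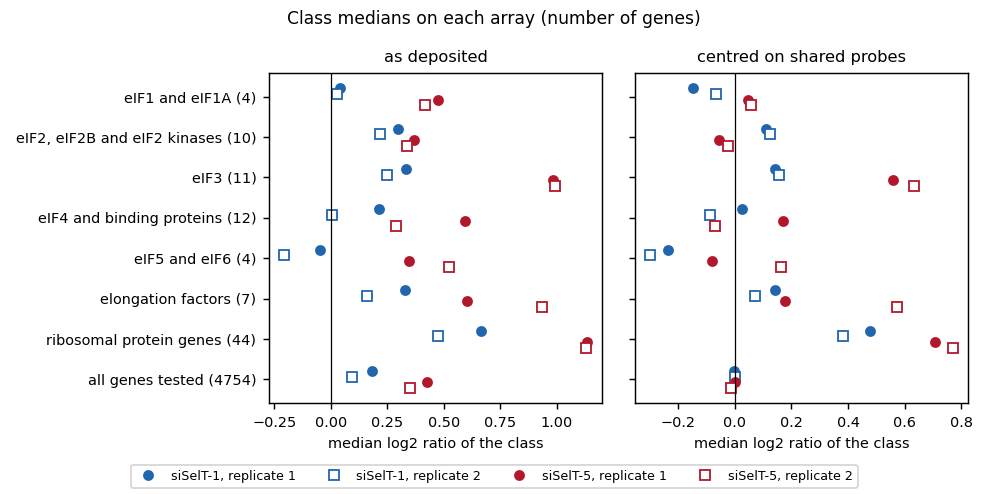
Median log2 ratio (x axis) of each class of translation factors, of ribosomal protein genes and of all genes tested (rows) on each array (symbols), as deposited and after centring on the shared-probe median. eIF3 reached 0.98 and 0.99 on the siSelT-5 arrays as deposited, against 0.33 and 0.25 on the siSelT-1 arrays.

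Eif3d (Entrez Gene 55944), a peripheral eIF3 subunit that can contact the cap, read 0.77 and 0.79 with siSelT-1 and 1.49 and 1.55 with siSelT-5. All arrays lay well above 0, and the siSelT-5 arrays lay above the siSelT-1 arrays with no overlap. Its mean was 1.15 ± 0.43 (SD, n = 4), a 2.22-fold ratio, with an adjusted p of 0.00161 in limma and 0.00413 after centring. Eif3f (Entrez Gene 66085), an MPN-domain subunit, was close to it in every array, at 0.69, 0.66, 1.40 and 1.49, with a mean of 1.06 ± 0.45 (SD, n = 4) and the same adjusted p of 0.00161. With Eef1d they were the 3 factors at 2-fold or more, a size that 1.89% of all genes reached.

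Of the other eIF3 subunits, Eif3m (0.74), Eif3k (0.67), Eif3h (0.62) and Eif3l (0.58) were higher on both scales, with adjusted p-values from 0.00193 to 0.00338. Eif3b, the scaffold that carries the RNA-recognition motif, read -0.20 and 0.25 with siSelT-1 but 1.04 and 1.09 with siSelT-5. It passed as deposited (0.55 ± 0.63, SD, n = 4; adjusted p = 0.00723) and not after centring (0.0937), and its siSelT-1 arrays lay on both sides of 0. Eif3e (0.33) also passed as deposited alone. Eif3a, the largest subunit and the core of the complex, read -0.16, -0.22, 0.05 and 0.04, with a mean of -0.07 ± 0.14 (SD, n = 4) and an adjusted p of 0.432. After centring it was lower, at an adjusted p of 0.0156. Eif3c, the other large core subunit, had a mean of 0.01, and Eif3i one of 0.36, and neither passed on either scale.

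Among the elongation factors, Eef1d (Entrez Gene 66656), the delta subunit of the eEF1B exchange factor, had the highest ratio of all 48 genes. It read 0.75 and 0.62 with siSelT-1 and 1.58 and 1.84 with siSelT-5, so the constructs did not overlap and every array lay above 0. Its mean was 1.20 ± 0.60 (SD, n = 4), a 2.29-fold ratio with an adjusted p of 0.00161. Eef2, the translocase, read 0.70, 0.55, 0.87 and 1.02 (mean 0.79 ± 0.20, adjusted p = 0.00185). Eef1g, the gamma subunit, read 0.67, 0.49, 0.48 and 0.72, with the siSelT-5 values on either side of those of siSelT-1. Its mean was 0.59 ± 0.12 (SD, n = 4), with an adjusted p of 0.0037. Eef1b2, another subunit of eEF1B, averaged 0.58, and these 4 genes were higher on both scales. Eef1a2, an eEF1A isoform best known from muscle and neurons, averaged 0.51, and the eEF1A lysine methyltransferase gene Eef1akmt1 averaged 0.36. Both passed as deposited alone.

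The lowest of the elongation group was Eef1e1, which encodes a scaffold protein of the aminoacyl-tRNA synthetase complex and is no elongation factor in its main role. It read -0.25, 0.09, -0.42 and -0.01, so that siSelT-1 and siSelT-5 overlapped around 0. Its mean was -0.15 ± 0.23 (SD, n = 4) with an adjusted p of 0.292, and after centring it was lower at an adjusted p of 0.0441.

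In the eIF2 group the highest ratio belonged to Eif2a (Entrez Gene 229317), which encodes eIF2A, a separate initiator tRNA-binding protein and not the alpha subunit of eIF2. It read 0.61 and 0.45 with siSelT-1 and 0.98 and 1.25 with siSelT-5, above 0 throughout and without overlap. Its mean was 0.82 ± 0.36 (SD, n = 4), with an adjusted p of 0.00195. Eif2ak1, the haem-regulated eIF2 kinase, was the most even of the higher genes of this group after Eif2b5, at 0.55, 0.46, 0.69 and 0.54 (mean 0.56 ± 0.09, adjusted p = 0.00329). These were the 2 genes of the group that stayed higher after centring.

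The eIF2 subunits measured here did not pass. Eif2s2, the beta subunit, read 0.47, 0.10, 0.11 and -0.65, a spread that crossed 0 within siSelT-5, with a mean of 0.01 ± 0.47 (SD, n = 4; adjusted p = 0.974). Eif2s3x, the X-linked gamma subunit, averaged 0.15 (adjusted p = 0.324). Of the 5 subunits of eIF2B, the exchange factor, Eif2b4 (0.58), Eif2b1 (0.45) and Eif2b5 (0.38) were higher as deposited and did not pass after centring. Eif2b2 averaged 0.05 (adjusted p = 0.698). Eif2b3, the gamma subunit, was the lowest of the group, at 0.08, -0.27, -0.24 and -0.16, with 3 of 4 arrays below 0. Its mean was -0.15 ± 0.16 (SD, n = 4; adjusted p = 0.217), and after centring it was lower at 0.015. Eif2d, which acts in non-canonical initiation and recycling, averaged -0.09 (adjusted p = 0.45; lower after centring at 0.048).

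In the eIF1 group Eif1a led, one of the genes for eIF1A, which helps the scanning ribosome. It read 0.36 and 0.37 with siSelT-1 and 1.04 and 0.92 with siSelT-5. Both constructs lay above 0 without overlap, and the mean was 0.67 ± 0.36 (SD, n = 4; adjusted p = 0.00212). Its X-linked counterpart Eif1ax averaged 0.32 (adjusted p = 0.0195, and 0.582 after centring). Eif1b averaged 0.06 (adjusted p = 0.511). Eif1ad, named for an eIF1A-like domain, read -0.04, 0.05, 0.27 and -0.04, around 0 with both constructs (mean 0.06 ± 0.15, adjusted p = 0.598).

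In the eIF4 group, as deposited and for both constructs together, the helicase genes passed and the scaffold genes measured, Eif4g2 and Eif4g3, did not. Eif4g1, another eIF4G gene, had no probe among those chosen. Eif4a1, the main cytoplasmic helicase, read 0.27 and 0.19 with siSelT-1 and 1.01 and 0.79 with siSelT-5, without overlap. Its mean was 0.56 ± 0.40 (SD, n = 4), with an adjusted p of 0.00372. Eif4a3, the helicase of the exon junction complex, averaged 0.50 and also passed on both scales, and Eif4a2 (0.29) passed as deposited alone. Eif4h, which stimulates eIF4A, averaged 0.45 and passed as deposited (adjusted p = 0.0116), while Eif4b, with a like role, averaged 0.19 and did not (0.145). Of the 4E-binding proteins, which repress cap-dependent initiation, Eif4ebp1 was higher (0.55, adjusted p = 0.00358), Eif4ebp2 averaged 0.26 (0.0642) and Eif4ebp3 averaged -0.06 (0.652; lower after centring at 0.0381).

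Eif4g2 (Entrez Gene 13690), which encodes DAP5, a scaffold related to eIF4G that cannot bind eIF4E, was the lowest of the eIF4 group. It read -0.53 and -0.54 with siSelT-1 and 0.34 and 0.20 with siSelT-5, so the constructs lay on opposite sides of 0. The mean of both, -0.13 ± 0.47 (SD, n = 4), did not pass (adjusted p = 0.197), and after centring it was lower at 0.0114. Eif4g3, another eIF4G gene, averaged 0.04 (adjusted p = 0.669), Eif4e2, a cap-binding homologue, averaged 0.20 (0.154), and Eif4enif1, the transporter of eIF4E into the nucleus, averaged 0.22 (0.186).

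Eif5b (Entrez Gene 226982), the GTPase of subunit joining, was the factor that was lower with each construct. It read -0.59 and -0.49 with siSelT-1 and -0.32 and -0.39 with siSelT-5. In the mean of its 3 probes every array lay below 0, with the siSelT-1 arrays the lower, although 1 probe differed, as given below. Its mean was -0.45 ± 0.11 (SD, n = 4), a 1.36-fold lower ratio with an adjusted p of 0.00587, and 0.00473 after centring. It did not pass without siSelT-1 replicate 1 or without siSelT-1 replicate 2, for both constructs together or for siSelT-5. The highest of the same class was Eif5a, a hypusine-carrying factor that helps elongation and termination, at 0.40, 0.31, 0.71 and 1.53, where siSelT-5 replicate 2 stood far above the other arrays. Its mean was 0.74 ± 0.56 (SD, n = 4), with an adjusted p of 0.00902 and 0.0609 after centring. Eif6, which keeps ribosomal subunits apart, averaged 0.21 (0.0984), and Eif5, the GTPase activator of eIF2, averaged 0.09 (0.472).

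Tested alone against vector, siSelT-1 gave 7 higher (14.6%) and 2 lower (4.17%) factors, beside 10.3% and 3.37% of all genes. The higher factors were Eef1d, Eef1g, Eef2, Eif2a, Eif2ak1, Eif3d and Eif3f, and the lower were Eif4g2 (siSelT-1 mean -0.53 ± 0.01, SD, n = 2) and Eif5b (-0.54), each at an adjusted p of 0.038. After centring 2 higher factors were left, Eif3d and Eif3f, and the same 2 lower ones, beside 3.83% and 5.07% of all genes. In limma, 0 factors and 0% of all genes passed for siSelT-1 without its replicate 1 (3 higher and 0 lower factors at an unadjusted p below 0.05) or its replicate 2 (5 and 1). Where genes missing on an array were also kept, 0 factors passed (13 and 2), beside 0.697% of all genes higher and 0.415% lower, and leaving out either siSelT-5 array gave 17 higher factors of 48, beside 32.4% of all genes.

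siSelT-5 alone gave 30 higher factors (62.5%) and 1 lower, Eif5b, beside 47.6% and 6.29% of all genes. After centring there were 17 higher and 6 lower, beside 19.2% and 20% of all genes. The lower after centring were Eef1e1, Eif2b3, Eif2s2, Eif3a, Eif4ebp3 and Eif5b. eIF3 held 8 of the 30 higher factors with a median of 0.91, while its siSelT-1 median was 0.27 with 2 higher. The median over all 48 factors was 0.57 with siSelT-5 and 0.20 with siSelT-1, against 0.38 and 0.14 for all genes. Since the constructs may share vector samples, their calls are set side by side and no overlap between them is given. Both sets of calls rest on 1 shared spread, while the root-mean-square SD over genes was 0.164 with siSelT-1 and 0.349 with siSelT-5. With array weights, 15 factors were higher with siSelT-1 and 26 with siSelT-5, beside 29.8% and 38.2% of all genes.

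In siSelT-1 minus siSelT-5, the test of the difference between constructs, 0 of 48 factors passed in limma, beside 0.0631% of all genes in either direction. At an unadjusted p under 0.05, 26 factors (54.2%) were lower with siSelT-1 and 0 higher, beside 31% and 4.67% of all genes. After centring these counts were 13 (27.1%) and 2 (4.17%), beside 12.8% and 13%. Both siSelT-1 arrays lay below both siSelT-5 arrays for 37 factors (77.1%), beside 52.6% of all genes. After centring this held for 26 factors (54.2%), beside 32%. Leaving out siSelT-5 replicate 1 or replicate 2 gave 21 factors lower with siSelT-1 and 1 higher in each case, beside 28% and 31.4% of all genes lower and 9.76% and 6.27% higher. The spread in those fits came from the siSelT-1 pair alone, whose root-mean-square SD over genes was 0.164 against 0.349 for siSelT-5.

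The smallest unadjusted p-values of this difference belonged to Eef1d, Eif4g2 and Eif3b, whose array values are given above. Eef1d differed by -1.03 ± 0.17 (SE), with a 95% interval from -1.46 to -0.59 and an adjusted p of 0.0543 in limma. Eif4g2 differed by -0.81 ± 0.15 (SE; adjusted p = 0.0546) and Eif3b by -1.04 ± 0.20 (SE; adjusted p = 0.0546). All arrays of siSelT-1 lay below those of siSelT-5 for these 3 genes, and none passed (0.109 to 0.128 after centring). Eef1g differed least of the higher genes, by -0.02 with an interval from -0.45 to 0.41, and Eif5b by -0.18 with an interval from -0.56 to 0.20. The largest difference in the other direction was that of Eif2s2, 0.55 with an interval from -0.18 to 1.29 (adjusted p = 0.232).

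**Figure D3:**
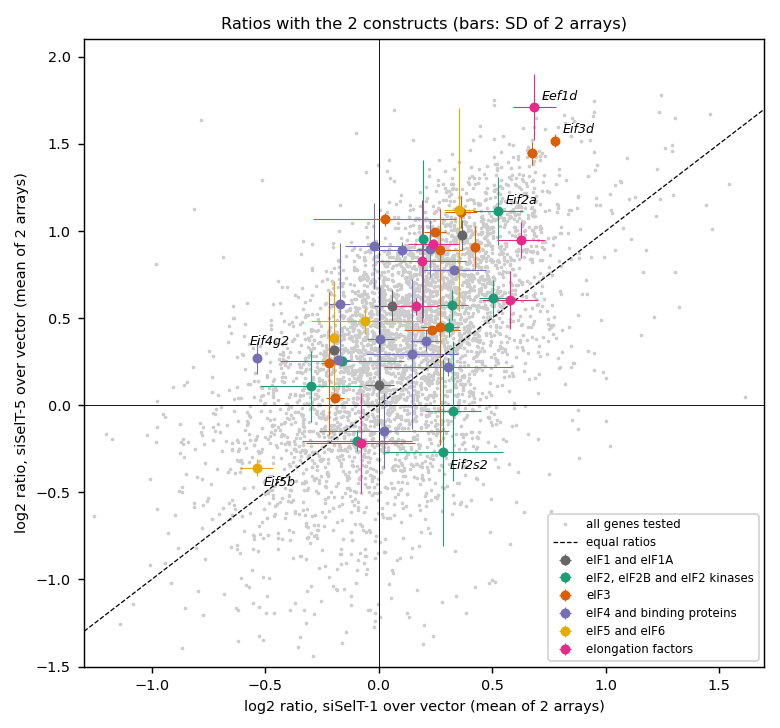
Mean log2 ratio as deposited of each translation factor gene with siSelT-1 (x axis) and siSelT-5 (y axis), n = 2 arrays each, coloured by class. Most points lie above the diagonal, Eef1d, Eif3d and Eif3f lie at the upper right, and Eif4g2 and Eif5b lie at the left.

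In 6 of 48 factors (12.5%), both siSelT-1 arrays were below 0 and both siSelT-5 arrays above it or the reverse, beside 12.6% of all genes. These were Eif1b, Eif3a, Eif4e2, Eif4g2, Eif4g3 and Eif5. In all of them siSelT-1 was the construct below 0, and their differences between constructs had adjusted p-values of 0.0546 to 0.305.

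Probes of a gene did not always give the same ratio. Of the 20 factors with several probes, 8 had probes whose means were of opposite sign. The median spread between the highest and lowest probe was 0.35, and no like values for all genes are given here. The extreme was Eif4e2, where a probe averaged 0.87 and the other -0.46, the former higher and the latter lower at an adjusted p under 0.05 when each probe was fitted by itself. Eif3i had probes at 0.93, 0.24 and -0.09, and Eif4a2 at 0.86, 0.44, -0.01 and -0.13. The gene means of these 3 genes are averages of unlike probes. Whether a probe also binds transcripts of a related gene, such as Eif4a1 and Eif4a2, Eif1a and Eif1ax or Eef1a1 and Eef1a2, was not tested.

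In 8 of the 20 genes every probe was higher, and in 0 every probe was lower. The like shares of all genes with several probes are not given here. Of single probes, 44 of 76 factor probes were higher and 4 lower, beside 44.3% and 8.4% of all 6251 probes. All 6 probes of Eef2 were higher, from 0.52 to 1.09. The lowest of them, at 1.06, 0.75, 0.19 and 0.07, was higher with siSelT-1 than with siSelT-5, opposite to the other 5 in their construct means. The probes of Eef1d averaged 1.42 and 0.98, those of Eif2a 1.19 and 0.46, and those of Eif5a 0.74 and 0.73. For Eif5b the 3 probes averaged -0.23, -0.53 and -0.58, and the latter 2 passed as lower for both constructs together. The first read 0.16 and -0.10 with siSelT-1 and -0.18 and -0.81 with siSelT-5, opposite in construct order to the other 2. Fitted alone in limma, the first did not pass for siSelT-1 (adjusted p = 0.929). None of the 3 passed for siSelT-5 (adjusted p from 0.0636 to 0.211). For Eif4g2 the probes were of opposite sign, at 0.08 and -0.35, and the latter passed as lower.

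**Figure D4:**
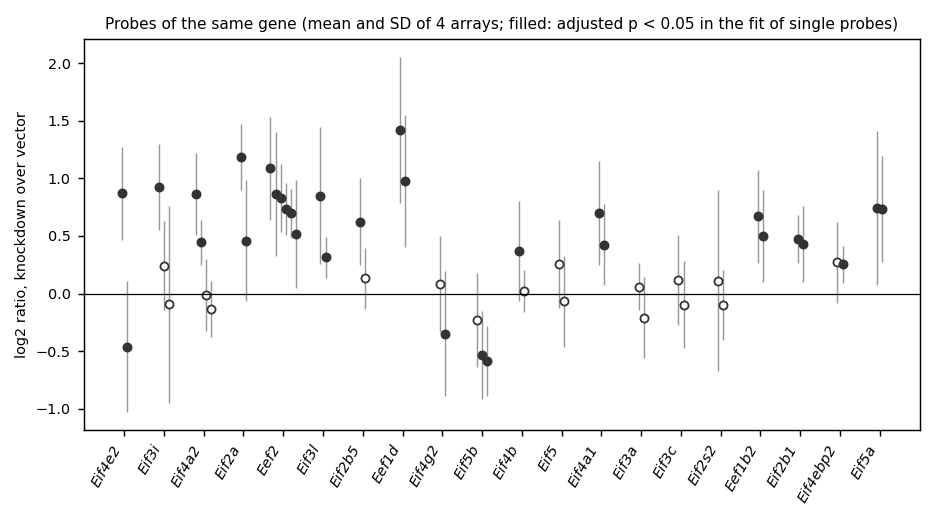
Mean log2 ratio over 4 arrays, as deposited, of each probe of the 20 translation factor genes with several probes. Eif4e2, Eif3i and Eif4a2 spread across 0, while both probes of Eif5a lie at 0.73 to 0.74.

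Of the factor probes 75.2% were valued on all 4 arrays, and of all probes, these included, 31.2%. The 12 genes without a test were Eef1a1, Eef1akmt2, Eef1aknmt, Eef2k, Eef2kmt, Eif2ak2, Eif2ak3, Eif2ak4, Eif3j1, Eif4e, Eif4e3 and Eif5a2. They include the main eEF1A gene, the cap-binding protein itself, the eEF2 kinase and 3 of the eIF2 kinases. Eef1a1 had 0.56 on siSelT-1 replicate 2 and 1.11 on siSelT-5 replicate 1, and no value on the other arrays.

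On the siSelT-5 arrays alone, 16 probes of 11 factor genes had values, and 14 of them averaged below 0, from -1.76 to 0.51. Eef2k, the kinase that inhibits eEF2, read -1.70 and -1.81 with one probe and -0.82 and -0.36 with the other. The 3 probes of Eif3j1, an eIF3-associated subunit, lay between -0.52 and -1.04, and Eif5a2 read -1.40 and -1.79. Eif4e read 0.19 and -0.69 with one probe and -0.66 and -1.20 with the other, and Eif2ak3, the eIF2 kinase of the endoplasmic reticulum known as PERK, read 0.60 and 0.41. These low values were shared by probes at large. The median siSelT-5 ratio was -0.62 for the 16 factor probes and -0.63 for 7460 probes valued with siSelT-5 only, of which 82.7% lay below 0.

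Probes valued on all 4 arrays had siSelT-5 medians of 0.55 for the factors and 0.38 for all probes. In 3 factor genes both kinds of probe were present, and in each the tested probe was the higher with siSelT-5. Eif1ax read 0.57 against -1.36, Eif3b 1.07 against -0.38 and Eif2b4 0.95 against 0.02. Among all genes with both kinds of probe, 83.4% of 747 had the tested probe higher, with a median difference of 0.75. The siSelT-5 ratio of a factor thus moved with the presence of a siSelT-1 value, and the part of that filter in the counts of higher factors was not tested.

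**Figure D5:**
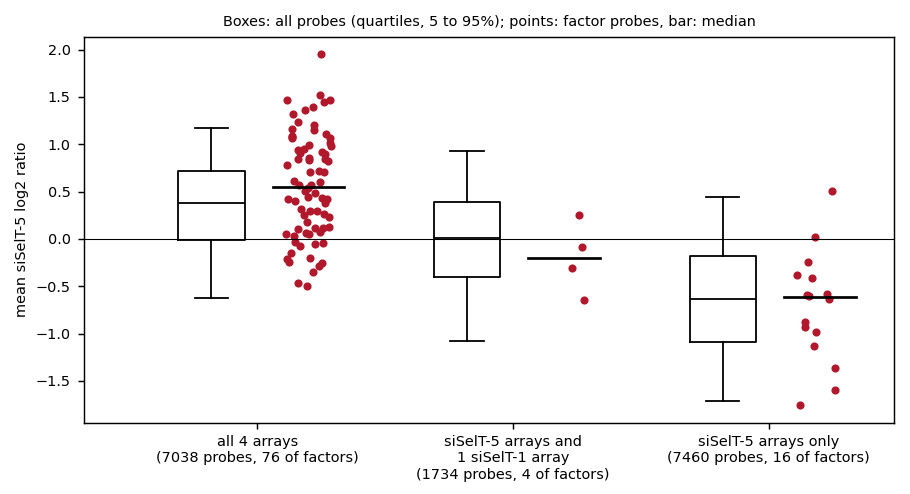
Mean siSelT-5 log2 ratio, as deposited, of translation factor probes (points) and the quartiles of all probes, by the arrays on which a probe had a value. Medians for the factors fall from 0.55 with values on all arrays to -0.62 with values on the siSelT-5 arrays only, and those for all probes from 0.38 to -0.63.

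Promoters were examined because 8 of 11 eIF3 genes and 6 of 7 elongation genes were higher, as were 43 of 44 ribosomal protein genes, and mRNAs of the translation machinery often begin with a C and a run of pyrimidines, the TOP element that LARP1 binds and mTOR signalling controls. Sequences are those of RefSeq on GRCm38.p6, which held promoters for 47 of the 60 genes, 36 of them tested. A run of at least 7 bases of C or T, starting with C, was sought on the coding strand. Its first base had to lie between 10 bases before and 20 after the annotated start, and the run could end beyond that. The stretches below run from 5 bases before the start to 25 from it, 5′ to 3′, with such runs in capitals. Eef2, Eif3f, Eif3l and Eif3k were higher, Eif2s3x did not pass, and Eif3d and Eif5b, the eIF3 gene with the highest ratio and the factor that was lower, had no run here.
Eef2, chr10:81176626-81176655, plus strand: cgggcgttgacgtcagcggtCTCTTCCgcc
Eif3f, chr7:108934410-108934439, plus strand: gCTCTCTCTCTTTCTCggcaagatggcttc
Eif3l, chr15:79075218-79075247, plus strand: CTTCTTCCgCTCTCTCCCacgggcttctgg
Eif3k, chr7:28981864-28981893, minus strand: gcgctggtgctgaaagcgCCTTTCCCTTTg
Eif2s3x, chrX:94212627-94212656, minus strand: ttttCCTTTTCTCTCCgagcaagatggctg
Eif3d, chr15:77970800-77970829, minus strand: catttacgacagcgctggtcgccgtttacg
Eif5b, chr1:37998005-37998034, plus strand: ttcccacctggccggcggctctactggaga

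A pyrimidine run was found in 13 of 47 factors (27.7%), beside 16.9% of 27025 genes and 45.5% of 55 ribosomal protein genes. Among all genes tested on the arrays, 45.7% were higher and 8.04% lower as deposited. Of 11 tested factors with a run, 5 were higher and 0 lower, with a median ratio of 0.22. Of 25 without a run, 15 were higher and 1 lower, with a median of 0.38. Of those with a run, Eef2, Eif3f, Eif3k and Eif3l stayed higher after centring and Eef1e1 was lower. Centred counts of factors without a run are not given here. Annotated starts can lie some bases from the true ones, so a run may be missed or misplaced.

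2 other short words were sought on both strands over the 300 bases from 250 before to 50 after the start. CACGTG, the E-box that MYC and related factors bind, was in 12 of 47 factors (25.5%). It was in 8.09% of the 27025 genes with a RefSeq promoter and 10.9% of 55 ribosomal protein genes. Shares among the genes tested on the arrays were not counted. Of 8 tested factors with the E-box, 6 were higher and 0 lower as deposited, with a median ratio of 0.61. Of 28 without it, 14 were higher and 1 lower, with a median of 0.28. Among all genes tested on the arrays, 45.7% were higher and 8.04% lower. Of the factors with the E-box, Eef2, Eif3f, Eif3k and Eif4a1 stayed higher after centring and Eif3a was lower. CCGGAAGT, the core bound by ETS factors, was in 9 factors (19.1%), beside 4.31% of the same 27025 genes and 18.2% of the ribosomal protein genes. Of 8 tested with it, 6 were higher and 0 lower as deposited, with a median of 0.58, against 14 and 1 of 28 without it. Of those with it, Eef1b2, Eif2ak1, Eif3d and Eif3l stayed higher after centring. Centred counts of factors without either word are not given here. These are descriptions of letters in a window. The ratios with and without a word were not compared by a test or set beside those of all genes with and without it. The 250 bases before the starts of Eef2 and Eif3f, and shorter stretches of other higher genes, show the words in capitals on the coding strand. Genes that did not pass as deposited also held the words and are not printed. They were Eif1b and Eif3a with the E-box, and Eif2b2 and Eif4e2 with the ETS word. The ETS word begins 71 bases before the start of Eif3d, where it lies on the other strand. In Eef1b2 it begins at or after the start, within the 50 bases searched there. The E-box begins 189 bases before the start of Eif4a1.
Eef2, chr10:81176381-81176630, plus strand: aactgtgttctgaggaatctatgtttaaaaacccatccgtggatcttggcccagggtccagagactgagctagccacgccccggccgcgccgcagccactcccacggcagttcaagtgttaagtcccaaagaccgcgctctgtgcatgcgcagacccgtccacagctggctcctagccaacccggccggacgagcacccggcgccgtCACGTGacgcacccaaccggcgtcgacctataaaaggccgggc
Eif3f, chr7:108934165-108934414, plus strand: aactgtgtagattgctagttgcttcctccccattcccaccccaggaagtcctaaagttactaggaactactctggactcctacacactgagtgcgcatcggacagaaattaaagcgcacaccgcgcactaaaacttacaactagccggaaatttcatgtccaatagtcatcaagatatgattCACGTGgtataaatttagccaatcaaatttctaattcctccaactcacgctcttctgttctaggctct
Eif3d, chr15:77970873-77970910, minus strand: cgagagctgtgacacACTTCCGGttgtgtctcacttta
Eef1b2, chr1:63176817-63176854, plus strand: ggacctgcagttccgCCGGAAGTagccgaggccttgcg
Eif4a1, chr11:69672592-69672627, minus strand: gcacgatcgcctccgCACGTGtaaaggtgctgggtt

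Other genes of translation are given as counts beside the factors, for both constructs together. The shares to set them against are those of all genes, 45.7% higher and 8.04% lower with a median of 0.25, and 20.5% and 21.9% after centring. Of 17 tested aminoacyl-tRNA synthetase genes, 10 (58.8%) were higher and 1 (5.88%) lower, with a median of 0.51 (7 and 2, or 41.2% and 11.8%, after centring). Sars (0.79), Aars (0.84) and Wars (0.68) had the smallest p-values. Of 10 cap-binding, poly(A)-binding and translation-control genes, 7 (70%) were higher and 0 lower, with a median of 0.46 (4 and 1, or 40% and 10%, after centring). Among them were Pdcd4, an inhibitor of eIF4A (0.84), Larp1, the TOP-binding protein (0.80), and Paip2, which displaces poly(A)-binding protein (0.72).

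All 4 tested genes of termination and ribosome rescue were higher, with a median of 0.44, and 1 stayed so after centring. Pelo and Hbs1l, partners in rescue of stalled ribosomes, averaged 0.85 and 0.48, and the release factor Etf1 averaged 0.39. Of 12 signalling genes around mTOR and eIF2 phosphatase, 6 (50%) were higher and 0 lower, with a median of 0.28 (1 and 3, or 8.33% and 25%, after centring), close to the higher share and the median of all genes as deposited. Rps6kb2, an S6 kinase, averaged 1.26, above every translation factor, and Akt1s1 and Akt1 averaged 0.51 and 0.48. Of 15 ribosome biogenesis genes, 9 (60%) were higher and 0 lower, with a median of 0.34 (4 and 2, or 26.7% and 13.3%, after centring), led by Nop10 (0.80), Npm1 (0.62) and Ubtf (0.77).

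3 lists had 1 tested gene each. Dohh, the hydroxylase that completes hypusine on eIF5A, was higher at 0.53 ± 0.36 (SD, n = 4; adjusted p = 0.00482). Tufm, the mitochondrial elongation factor, read 2.21 and 0.73 with siSelT-1 and 0.99 and 1.04 with siSelT-5, all above 0 with siSelT-1 replicate 1 far above the rest, at a mean of 1.24 (adjusted p = 0.00783). Trnau1ap, which works with the selenocysteine tRNA, averaged 0.09 and did not pass (adjusted p = 0.399).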

How the data were processed

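RNA of knockdown and vector NIH 3T3 cells was compared on 4 two-colour arrays, 2 per construct. Values are the log ratios deposited by the authors, read as log2; base, background correction, normalization and filter are not given in the sources used here. Names came from the platform annotation: 18129 probes with 1 gene, 140 with several, 4265 with none. Entrez identifiers matched 18041 probes to RefSeq and changed 0 symbols. A gene was the mean of its probes valued on all 4 arrays (7038 probes, 4754 genes). limma 3.58.1 (lmFit, eBayes) in R 4.3.3 with statmod 1.5.0 fitted 1 mean per construct, with 2 residual degrees of freedom, and adjusted over all genes, two-sided, at 0.05. It was tested on simulated data. The number of arrays limits precision, and the spread of vector cultures enters no test. Members, classes and lists were chosen with earlier results of these data known. Every tested gene is named; array values are given for the extremes overall and per class and for the smallest p of the difference, and for some others chosen after their values were seen. Up to 3 genes per other list are named by smallest p. Alternatives were centring, scaling, filters, probes, spread, weights, a replicate block, thresholds and left-out arrays.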

Additional observations from a re-analysis of the deposited data

How the results depend on the processing

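With 2 arrays per construct, 1 array decides many calls, and a construct left with 1 array is assumed to vary like the other. Leaving out each array gave 0 to 32 higher and 0 to 2 lower factors for both constructs, 0 to 17 and 0 to 2 for siSelT-1, 24 to 33 and 0 to 2 for siSelT-5, and 0 to 1 higher and 0 to 21 lower for the difference. Centring gave 16 higher and 7 lower for both constructs, 2 higher for siSelT-1, and 17 and 6 for siSelT-5. The shares of all genes after centring are given above. Centring with scaling gave 16 and 10 for both constructs, beside 22.5% and 24.4% of all genes. It gave 7 lower for siSelT-1, beside 17%, and 14 and 2 for siSelT-5, beside 14.9% and 15.8%. Counting a gene where every probe passed alone gave 0 lower for both constructs, 3 and 0 for siSelT-1 and 0 lower for siSelT-5. Of all 6251 probes fitted alone, 8.4% were lower for both constructs and 6.8% for siSelT-5. For siSelT-1, 8.01% were higher and 3.33% lower. These are shares of probes and not of genes. A looser filter, with 53 factors tested, gave 0 higher and 0 lower for siSelT-1. A common spread gave 0 lower for siSelT-5 and 8 of 48 lower for the difference, beside 7.87% and 8.35% of all genes. Array weights gave 15 of 48 higher for siSelT-1, 0 lower for siSelT-5 and 4 lower for the difference. The shares of all genes were 29.8%, 4.23% and 4.99%. A threshold of 0.1 gave 20 lower for the difference, and 0.01 gave 0 and 0 for siSelT-1 and 0 lower for siSelT-5. Shares of all genes at these thresholds are not given here. Deviations of same-numbered replicates from their construct means had r = 0.0758 over 4754 genes. With 2 arrays per construct this cannot show whether same-numbered arrays were paired. The replicate block left 27 higher and 1 lower for both constructs, beside 45.4% and 8.44% of all genes. It gave 0 and 0 for siSelT-1, beside 0.526% and 0.21%, and 0 lower for siSelT-5, beside 6.77%. That fit had 1 residual degree of freedom fewer. The cause of these changes was not tested. Ratios for both constructs turned below 0 on centring, and with scaling, for Eif1ad (-0.21, -0.20), Eif1b (-0.20, -0.25), Eif2b2 (-0.22, -0.26), Eif2s2 (-0.26, -0.17), Eif2s3x (-0.12, -0.065), Eif3c (-0.26, -0.28), Eif4b (-0.072, -0.084), Eif4e2 (-0.063, -0.12), Eif4enif1 (-0.046, -0.028), Eif4g3 (-0.23, -0.26), Eif5 (-0.17, -0.23) and Eif6 (-0.054, -0.094), and on centring alone for Eif4ebp2 (-0.0045); none of these passed as deposited. Leaving out an array turned the sign of Eif1ad (-0.018 to 0.14), Eif2b2 (-0.050 to 0.14), Eif2s2 (-0.18 to 0.20), Eif3c (-0.13 to 0.16), Eif4ebp3 (-0.16 to 0.040) and Eif5 (-0.023 to 0.21). Robust eBayes and added unnamed probes changed the direction or call of 0 of the 48 factors for both constructs.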
